A study of Homo sapiens with 2 samples.

Results

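Tubulin genes are described here across 3 groups of ovarian cancer cells that were read in 1 single-cell long-read library. The members are 10 genes chosen by symbol from the authors' transcript table: the alpha-tubulin genes TUBA1A, TUBA1B, TUBA1C and TUBA4A and the beta-tubulin genes TUBB, TUBB2A, TUBB2B, TUBB3, TUBB4B and TUBB6. They account for 34 of the 99493 listed transcripts and 10 of the 57110 gene entries, and for 56443 counts, or 0.432% of all counts. The rule uses gene symbols and no measured value.

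No treatment is named. The library came from a pool of the ovarian cancer lines IGROV1, SK-OV-3 and COV504, combined in equal parts, and was sequenced on a nanopore PromethION, which reads cDNA molecules along their length. An Illumina library of the same pool served only for its barcode list, which shared 2462 of the 2462 PromethION barcodes. The pool carries no label that ties a barcode to a line, so 3 groups were formed from marker genes. Barcodes with at least 1000 counts joined a group where its markers held at least 75% of the counts of all marker genes: ERBB2, NNMT, TSPAN1 and DHRS2 (ERBB2-high, 648 cells), RARRES2 and TMEM100 (RARRES2-high, 473 cells) or FOLR1, CLDN3, DEFB1 and CXCL14 (FOLR1-high, 765 cells). Of 2129 barcodes at that depth, 243 joined none. At the limit, 39 barcodes lay less than 5 points below it and 85 less than 5 points above it.

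The ERBB2-high group was SK-OV-3-like: GRB7, MIEN1, STARD3 and PGAP3, which lie beside ERBB2 and are amplified with it in that line, were highest there, and CDKN2A, which that line lacks, had 1 count. CDKN2A was also at 0 counts in the RARRES2-high group and at 88 counts in the FOLR1-high group. The RARRES2-high and FOLR1-high groups keep the names of their leading genes. Median counts per cell were 4953, 6262 and 5289 in the ERBB2-high, RARRES2-high and FOLR1-high groups, and the median mitochondrial share was 2.82, 3.02 and 7.12%. Of 10 marker genes of immune, blood, endothelial, glial and smooth muscle cells, 7, 6 and 5 were at 0 counts, and their summed level was 2.03, 3.26 and 2.88 CPM (counts per 1000000 counts of the group). Each group is 1 pool of cells from 1 library, so no difference could be tested. All intervals are 95% intervals for counting error only.

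Alpha- and beta-tubulin pair into the dimers from which microtubules are built, the polymers that form the mitotic spindle and carry transport through the cell. Vertebrate genomes hold several genes for each partner, called isotypes, whose products differ mostly in an acidic tail at the end of the protein. That tail lies on the microtubule surface, where it is modified and bound by motors and associated proteins. Beta-tubulin is the binding partner of taxanes, drugs used against ovarian cancer, and the TUBB3 isotype has been studied as a marker of taxane response. Cells also control tubulin mRNA by its own product: the ribosome-bound start of the new chain is recognised, and the mRNA is destroyed, when free dimers are in excess.

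The coding ends of 8 leading transcripts show how isotypes differ, and are printed because the shares of the isotypes are the main result. Each line holds the last 16 codons before the stop codon, taken from GENCODE release 29 (GRCh38), with the codons of the acidic residues, GAA, GAG, GAC and GAT, in capitals.
TUBA1C: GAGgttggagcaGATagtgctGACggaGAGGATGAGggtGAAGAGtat
TUBA4A: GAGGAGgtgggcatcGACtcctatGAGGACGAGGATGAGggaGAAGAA
TUBB: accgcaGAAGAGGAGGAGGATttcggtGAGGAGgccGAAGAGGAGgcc
TUBB4B: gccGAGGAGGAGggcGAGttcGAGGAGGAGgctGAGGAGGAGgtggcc
TUBB2A: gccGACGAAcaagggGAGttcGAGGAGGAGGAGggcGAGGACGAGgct
TUBB2B: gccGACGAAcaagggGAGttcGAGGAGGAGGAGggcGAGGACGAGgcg
TUBB3: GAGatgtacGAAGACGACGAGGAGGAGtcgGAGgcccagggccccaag
TUBB6: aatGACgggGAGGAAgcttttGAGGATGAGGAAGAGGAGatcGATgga

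TUBA1C ended in a tyrosine codon, the residue that the detyrosination cycle removes and restores, and TUBA4A in an acidic codon in its place. Acidic codons numbered 8 of 16 in TUBA1C and TUBB3 and 10 of 16 in the other 6 genes shown. At the opposite end, codons 2 to 4 (capitals) encode the stretch read by the mRNA control described above. These 12 bases were atgCGTGAGTGC in TUBA1A, TUBA1B and TUBA1C, atgCGTGAATGC in TUBA4A, atgAGGGAAATC in TUBB and TUBB4B, atgAGGGAGATC in TUBB3 and TUBB6, atgCGCGAGATC in TUBB2A and atgCGTGAGATC in TUBB2B.

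Over the whole coding sequence, the alpha genes were 84.4 to 97.2% identical to each other and the beta genes 81.0 to 98.2%, the upper values being TUBA1A with TUBA1B and TUBB2A with TUBB2B. Over the last 200 bases of the leading transcripts, identity within a class was 51.0 to 60.0% and 43.0 to 54.0%. The leading transcript of each member has 4 exons. How reads that match several tubulin genes were assigned is not stated by the labels or files. The 40 tubulin pseudogene and pseudogene-like entries were all listed at 0 counts, and among all 10179 processed pseudogene transcripts 198 were above 0.

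Over all cells, the RARRES2-high group carried the most tubulin RNA, but not at every level of cell-cycle genes. Summed over the 10 genes, the level was 3546 CPM (3483 to 3610) in the ERBB2-high group, 5993 CPM (5910.3 to 6076) in the RARRES2-high group and 3421 CPM (3368 to 3476) in the FOLR1-high group. The alpha genes held 1972, 3569 and 1505 CPM and the beta genes 1574, 2424 and 1917 CPM. Alpha counts therefore exceeded beta counts 1.25-fold (1.21 to 1.30) in the ERBB2-high and 1.47-fold (1.43 to 1.51) in the RARRES2-high group, and were 0.785 times (0.760 to 0.811) the beta counts in the FOLR1-high group. Per transcript length, which is needed to compare different genes, the same ratios were 1.37, 1.55 and 0.895. The sums moved with the G2/M list, a set of cell-cycle genes described below, of which the RARRES2-high cells held more. In cells with under 0.1% of their counts in that list, the sum was 2102 CPM (2036 to 2169) in the ERBB2-high, 2332 CPM (2151 to 2525) in the RARRES2-high and 2039 CPM (1942 to 2141) in the FOLR1-high group. In cells with at least 1%, it was 7844 CPM (7606 to 8087), 7605 CPM (7415 to 7798) and 5858 CPM (5681 to 6038), so the ERBB2-high group was then the highest, with an interval that overlapped that of the RARRES2-high group. Over 5 ranges of the list share, the ratio of alpha to beta counts ran from 1.16 to 1.34 in the ERBB2-high, from 1.22 to 1.64 in the RARRES2-high and from 0.667 to 0.942 in the FOLR1-high group.

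Between groups, genes were called where the ratio of levels was at least 2 after 10 CPM were added to both sides, among 10202 gene entries with at least 50 counts in the 3 groups. In the ERBB2-high against the RARRES2-high group, 1 of the 10 members was higher (TUBA1A) and 3 were lower (TUBA1B, TUBB4B and TUBB6), where 10.1% of all entries were higher and 7.69% lower. In the ERBB2-high against the FOLR1-high group, 2 were higher (TUBA1A and TUBA4A) and 0 lower, beside 12.7% and 4.99% of all entries. In the RARRES2-high against the FOLR1-high group, 5 were higher (TUBA1B, TUBA1C, TUBA4A, TUBB2A and TUBB6) and 0 lower, beside 12.5% and 6.47%. The median log2 ratio of the members was -0.64 in the first pair, 0.07 in the second and 0.91 in the third, and that of all entries was 0.15, 0.29 and 0.12.

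These all-entry medians moved when TMM factors, which allow for highly expressed genes, replaced the total: to 0.01, 0.03 and -0.01. Under TMM the calls of TUBA4A in the second pair (log2 ratio 0.96) and of TUBA1C in the third (0.81) fell short. TUBA4A in the first pair (-1.14) and TUBB4B in the second (-1.05) passed. TUBA1C in the third pair also fell short without mitochondrial and ribosomal protein genes in the total (0.73), at 90% marker purity (0.975) and with the mean CPM of single barcodes (0.92). TUBA4A in the first pair also passed without those genes (-1.0003) and without Scrublet doublets (-1.01). TUBB6 in the ERBB2-high against the FOLR1-high group, which is not called, went from 0.27 to -0.10 (to -0.04 without those genes), and TUBB in the ERBB2-high against the RARRES2-high group from 0.20 to 0.00.

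**Figure D1:**
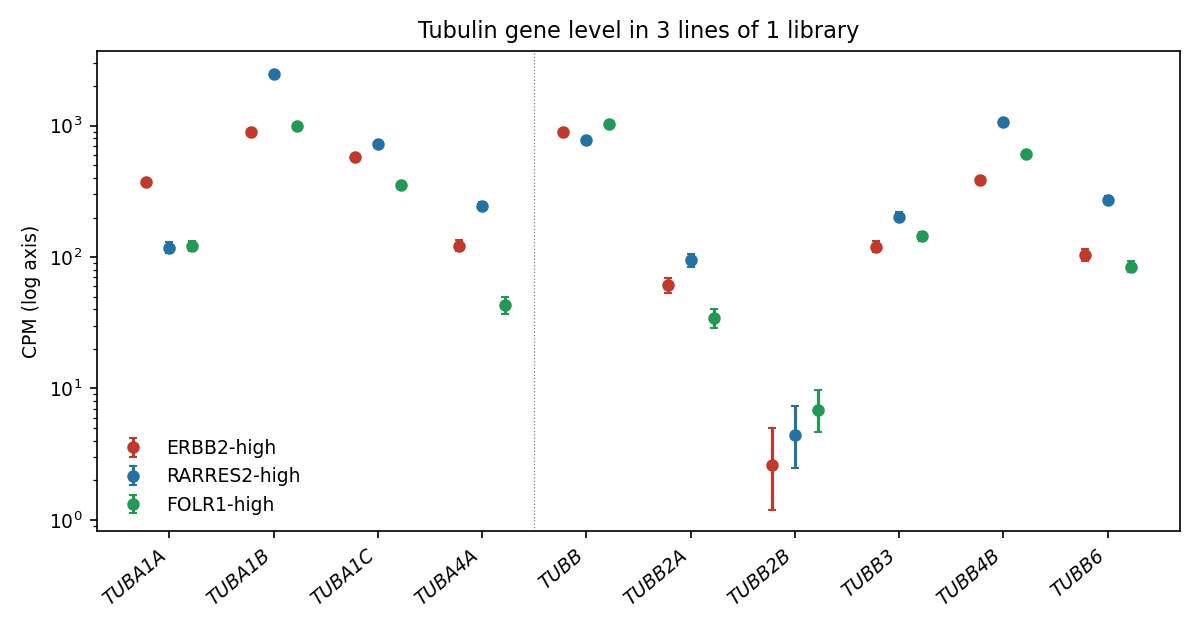
Level of each tubulin gene in CPM (log axis) in the 3 groups of 1 library; points are pooled levels and bars 95% intervals for counting error, and the dotted line parts alpha from beta genes. TUBA1A is highest in ERBB2-high cells at 373 CPM, and TUBA1B and TUBB4B are highest in RARRES2-high cells at 2484 and 1069 CPM.

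TUBA1A, an alpha isotype best known from developing neurons (chr12:49184796-49189324, minus strand, GRCh38), was the member higher in the ERBB2-high cells than in both other groups. Its level was 373 CPM (353 to 394) in the ERBB2-high, 118 CPM (107 to 130.3) in the RARRES2-high and 121 CPM (111 to 132) in the FOLR1-high group. The ERBB2-high level was 3.16-fold (2.82 to 3.54) and 3.08-fold (2.78 to 3.41) that of the other groups, which differed from each other by a ratio of 0.975 (0.855 to 1.11). Among cells with at least 2000 counts, the median cell of the ERBB2-high group had 289 CPM, and the median cell of each other group had 0.

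TUBA1B, the alpha isotype present in most dividing cells (chr12:49127782-49131395, minus strand), had the highest level of the 10 per length in every group. It stood at 899 CPM (867 to 931) in the ERBB2-high, 2484 CPM (2431 to 2538) in the RARRES2-high and 989 CPM (960.1 to 1018) in the FOLR1-high group. The RARRES2-high level was 2.76-fold (2.65 to 2.88) and 2.51-fold (2.42 to 2.61) that of the ERBB2-high and FOLR1-high groups. Between the lower and the upper quartile of cells, it ran from 0 to 1037 CPM in the ERBB2-high group around a median of 353. It ran from 1463 to 3383 CPM around 2476 in the RARRES2-high and from 242 to 1418 CPM around 721 in the FOLR1-high group. The pooled ERBB2-high level lay above its median cell.

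TUBA1C, a close neighbour on the same chromosome arm (chr12:49227926-49274603, plus strand), followed another order. It was at 578 CPM (553 to 604) in the ERBB2-high, 721 CPM (692 to 750.1) in the RARRES2-high and 352 CPM (335 to 369) in the FOLR1-high group. The RARRES2-high to FOLR1-high ratio was 2.05 (1.92 to 2.18). At like shares of the G2/M list this ratio was 1.17 to 1.997 and passed the limit in 0 of 5 ranges. The ERBB2-high to RARRES2-high ratio of TUBA1C was above 1 in 4 of 5, the reverse of the order over all cells. It was 1.06 (0.855 to 1.33) under 0.1%, 1.30 (1.04 to 1.63) from 0.1 to 0.3% and 0.900 (0.739 to 1.09) from 0.3 to 0.6%. It was 1.09 (0.929 to 1.28) from 0.6 to 1% and 1.15 (1.04 to 1.27) at 1% or more. Its interval lay above 1 only from 0.1 to 0.3% and at 1% or more, and included 1 elsewhere. TUBA4A is the isotype encoded without the final tyrosine (chr2:219249711-219254608, minus strand). It had 122 CPM (111 to 135), 245 CPM (229 to 263) and 43.0 CPM (37.1 to 49.5) in the ERBB2-high, RARRES2-high and FOLR1-high groups. The RARRES2-high to FOLR1-high ratio of TUBA4A, 5.71 (4.88 to 6.71), exceeded that of any other member in any pair. Its RARRES2-high to ERBB2-high ratio was 2.01 (1.78 to 2.26) and fell under the limit once 10 CPM were added. From the lowest to the highest range of the list share, the latter ratio was 0.902 (0.563 to 1.38), 1.23, 1.24, 1.62 and 2.40 (1.80 to 3.24).

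TUBB, the main beta isotype of dividing cells (chr6:30720201-30725426, plus strand), differed less between groups over all cells than the other abundant members, TUBA1B, TUBA1C and TUBB4B, but not at each range of the G2/M list share. Its level was 902 CPM (871 to 934) in the ERBB2-high, 782 CPM (752 to 812) in the RARRES2-high and 1039 CPM (1009 to 1069) in the FOLR1-high group. The 3 intervals did not overlap, but the largest ratio, FOLR1-high to RARRES2-high, was 1.33 (1.27 to 1.39). TUBB4B, the other broadly expressed beta isotype and a major one of cilia (chr9:137241213-137243707, plus strand), was at 384 CPM (364 to 406), 1069 CPM (1034 to 1104) and 609 CPM (586 to 632). The RARRES2-high to ERBB2-high ratio of TUBB4B was 2.78 (2.61 to 2.96), close to that of TUBA1B.

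TUBB6, a divergent beta isotype known from muscle and other tissues (chr18:12308059-12337225, plus strand), had 104 CPM (93.8 to 116) in the ERBB2-high, 271 CPM (254 to 289) in the RARRES2-high and 84.6 CPM (76.3 to 93.5) in the FOLR1-high group. The RARRES2-high level was 2.60-fold (2.30 to 2.95) and 3.21-fold (2.84 to 3.62) the others. At like shares of the G2/M list the ratio to the ERBB2-high group was 1.94, 1.52, 1.38, 3.03 and 1.93 from the lowest to the highest range, and passed the limit in 1 of 5. TUBB2A (chr6:3153669-3157526, minus strand) had 61.0 CPM (53.0 to 69.8), 94.4 CPM (84.4 to 105) and 34.1 CPM (28.9 to 39.9). TUBB2B, the neuronal gene beside it (chr6:3224261-3227735, minus strand), had 9, 15 and 31 counts, or 2.61, 4.44 and 6.87 CPM, and its intervals overlapped between neighbouring groups. The FOLR1-high to ERBB2-high ratio of TUBB2B was 2.63 (1.22 to 6.27), and fell under the limit once 10 CPM were added.

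TUBB3, the isotype otherwise characteristic of neurons, shares 1 entry of the authors' table with MC1R, a melanocortin receptor gene, and a read-through gene, and is separated from them by transcript only. The entry stood at 119.7 CPM (108 to 132) in the ERBB2-high, 203 CPM (188 to 219) in the RARRES2-high and 144 CPM (133 to 155) in the FOLR1-high group. Transcripts annotated to TUBB3 itself (chr16:89921851-89938761, plus strand) held 94.0, 96.8 and 96.8% of it, or 112, 197 and 139 CPM. MC1R held 2.43, 0.729 and 1.54%, and the read-through transcript 3.62, 2.51 and 1.64%. None of the 3 ratios between groups reached the limit; the largest, RARRES2-high to ERBB2-high, was 1.70 (1.499 to 1.92). At like shares of the G2/M list the RARRES2-high to FOLR1-high ratio turned, from 0.568 (0.362 to 0.860) in the lowest range to 2.68 (2.01 to 3.61), past the limit, in the highest.

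The mixture of isotypes differed between the groups by more than counting error. Shares were taken of the 4 alpha or the 6 beta genes, and 4 members shifted by at least 10 percentage points between some pair: TUBA1A (15.6), TUBA1B (24.0), TUBB (25.1) and TUBB4B (19.7). TUBA4A, TUBB2A, TUBB2B and TUBB3 each held under 10% of their class in every group, so they could not reach this limit. It thus passes over changes in small shares, such as that of TUBA4A below. In the ERBB2-high group TUBA1B made up 45.6% of alpha counts (44.4 to 46.8), TUBA1C 29.3%, TUBA1A 18.9% (18.0 to 19.9) and TUBA4A 6.20%. In the RARRES2-high group TUBA1B made up 69.6% (68.8 to 70.4), TUBA1C 20.2%, TUBA1A 3.31% (2.998 to 3.64) and TUBA4A 6.88%. The FOLR1-high group lay between for TUBA1B at 65.7% (64.6 to 66.8) and TUBA1A at 8.05% (7.41 to 8.72), with TUBA1C at 23.4% and TUBA4A at 2.86%.

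Among beta genes, TUBB led in the ERBB2-high and FOLR1-high groups and TUBB4B in the RARRES2-high group. TUBB made up 57.3% (56.0 to 58.6), 32.3% (31.2 to 33.3) and 54.2% (53.1 to 55.3) of beta counts in the ERBB2-high, RARRES2-high and FOLR1-high groups. TUBB4B made up 24.4% (23.3 to 25.6), 44.1% (43.0 to 45.2) and 31.8% (30.8 to 32.7). TUBB transcripts are longer, so the 2 genes are compared per length: TUBB then held 46.1, 23.2 and 42.8% and TUBB4B 32.2, 52.1 and 41.1%. The order was kept in each group, with a small gap in the FOLR1-high group. The TUBB3 entry made up 7.60, 8.38 and 7.49% of counts over all cells. TUBB6 made up 6.63, 11.2 and 4.41%, TUBB2A 3.88, 3.90 and 1.78%, and TUBB2B 0.166, 0.183 and 0.358%.

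**Figure D2:**
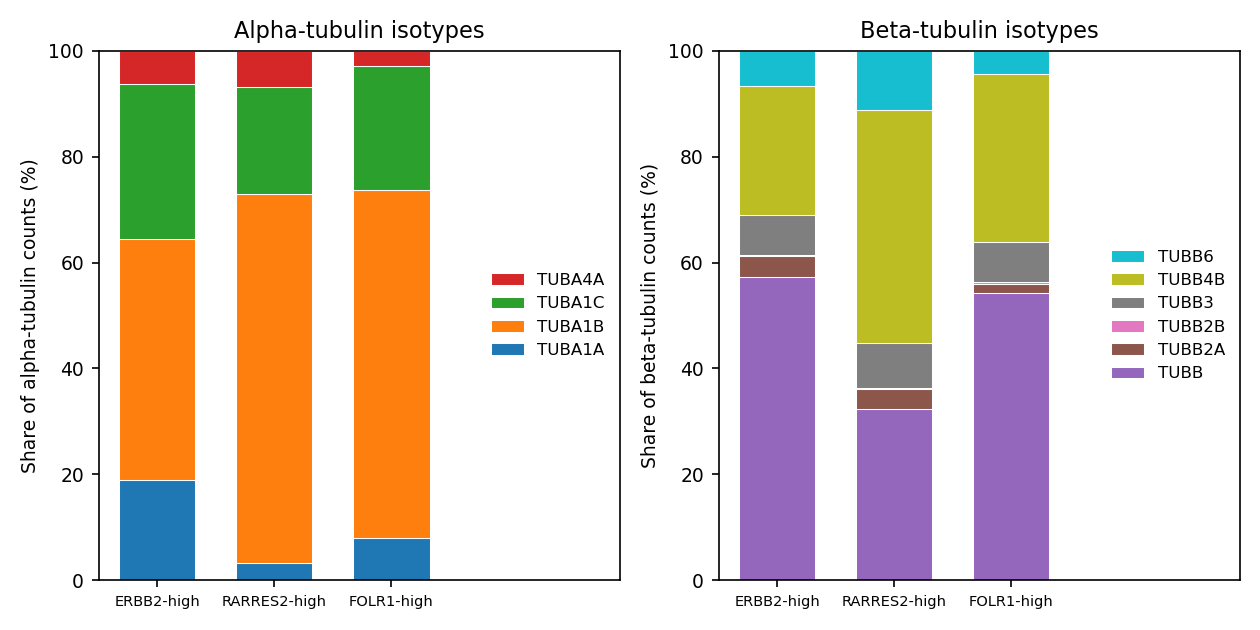
Share of each isotype, in percent of the counts of the 4 alpha genes (left) and the 6 beta genes (right), in the 3 groups; each bar sums to 100. TUBB takes 57.3 and 54.2% of beta counts in the outer bars and 32.3% in RARRES2-high cells, where TUBB4B takes 44.1%.

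Microtubules are rebuilt into the spindle when cells divide, so the members were followed along a list of 45 genes active in the G2 and M phases of the cell cycle, which holds no tubulin. The groups differed in it: the median cell had 0.0769% of its counts in the list in the ERBB2-high, 0.603% in the RARRES2-high and 0.208% in the FOLR1-high group. Within each group, cells with at least 2000 counts were called G2/M-high at or above the 80th percentile of that share and G2/M-low at or below the median. These are ranges of a score and not phases. G2/M-high cells were also deeper, with median counts of 7401 against 4627, 8181 against 6108.5 and 6420 against 4967 in the 3 groups, and the part of depth in these ratios was not tested.

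Members were called where the ratio was at least 1.5 after 10 CPM were added. In the ERBB2-high group 6 of 10 members were higher in G2/M-high cells and 0 lower, beside 10.3% and 4.63% of all entries tested. In the RARRES2-high group 4 were higher and 0 lower, beside 5.90% and 3.22%. In the FOLR1-high group 6 were higher and 2 lower (TUBA1A and TUBB3), beside 9.83% and 2.57%. TUBA1C, TUBB, TUBB2A and TUBB4B were higher in each of the 3 groups, and TUBA4A and TUBB2B were called in none. The median log2 ratio of the members was 0.91, 0.47 and 0.73, and that of all entries 0.03, 0.06 and 0.07.

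TUBA1B had the widest range. In the ERBB2-high group it was at 2362 CPM in G2/M-high and 255 CPM in G2/M-low cells, a ratio of 9.27 (8.31 to 10.4). In the FOLR1-high group it was at 1869 and 486 CPM, a ratio of 3.84 (3.56 to 4.15). In the RARRES2-high group it was at 2739 and 2141 CPM, a ratio of 1.28 (1.21 to 1.35) that was not called. The G2/M-low limit of the RARRES2-high group, 0.632%, lay above the G2/M-high limit of the ERBB2-high group, 0.492%, so the low cells of these groups do not match.

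TUBB4B was at 967 and 167 CPM in G2/M-high and G2/M-low cells of the ERBB2-high group, a ratio of 5.78 (5.02 to 6.68). The ratio was 2.06 (1.90 to 2.23) in the RARRES2-high and 3.87 (3.52 to 4.24) in the FOLR1-high group. TUBA1C had ratios of 2.84 (2.56 to 3.15), 2.38 (2.16 to 2.62) and 2.24 (1.98 to 2.53), the closest agreement among the abundant members. TUBB had 3.02 (2.77 to 3.28), 1.60 (1.45 to 1.76) and 1.67 (1.56 to 1.80). TUBB6 had 2.16 (1.68 to 2.78), 1.51 (1.28 to 1.78) and 1.74 (1.35 to 2.25), the second of which fell short once 10 CPM were added. TUBB2A had 1.89 (1.37 to 2.60), 1.62 (1.23 to 2.12) and 2.09 (1.40 to 3.13).

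TUBA1A and TUBB3 were lower in G2/M-high cells of the FOLR1-high group. TUBA1A had 75.9 CPM in G2/M-high and 147 CPM in G2/M-low cells there, a ratio of 0.518 (0.398 to 0.667). The ratio of TUBA1A was 1.06 (0.919 to 1.22) in the ERBB2-high and 0.933 (0.710 to 1.22) in the RARRES2-high group. TUBB3 had 103 and 165 CPM in the FOLR1-high group, a ratio of 0.626 (0.498 to 0.782), against 1.17 (0.917 to 1.48) and 1.31 (1.09 to 1.58). TUBA4A had 1.46 (1.14 to 1.86), 1.23 (1.03 to 1.46) and 1.02 (0.680 to 1.51).

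**Figure D3:**
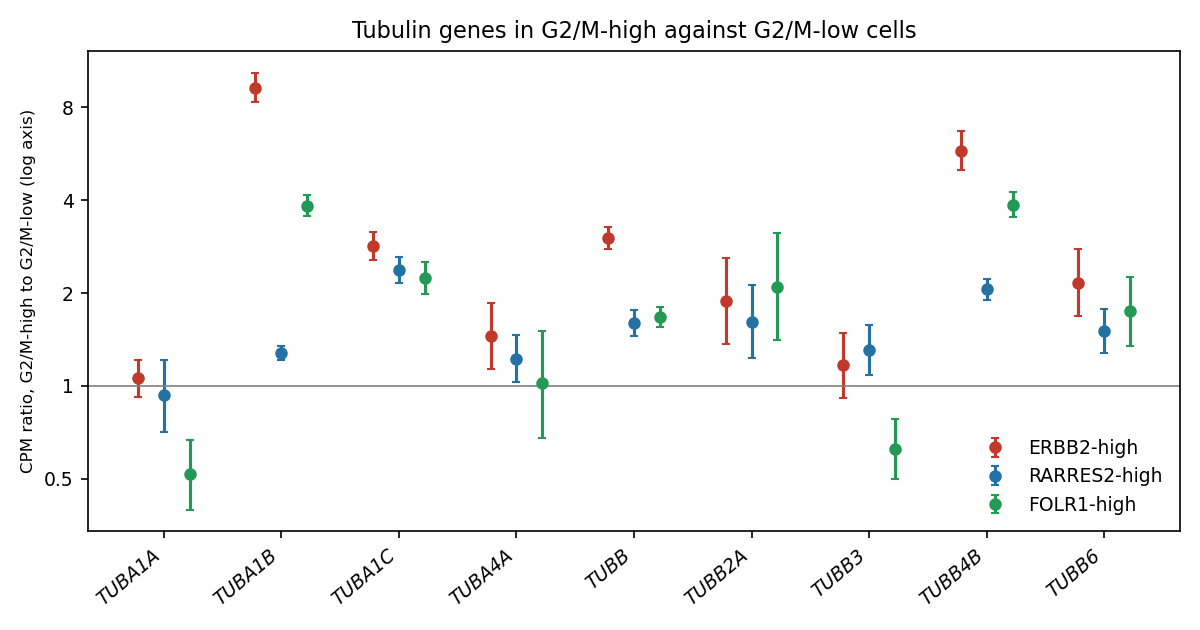
Ratio of CPM in G2/M-high to G2/M-low cells (log axis) for 9 members in the 3 groups, with 95% intervals for counting error; TUBB2B, with 6 to 23 counts per group, is left out. TUBA1B spans 1.28 to 9.27, while TUBA1A and TUBB3 lie below 1 in FOLR1-high cells at 0.518 and 0.626.

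To compare the groups at like levels of the list, cells were placed in 5 common ranges of its share, from under 0.1% to at least 1%; these ranges were chosen after the data had been seen. TUBB was lowest in the RARRES2-high group in 5 of 5 ranges, with intervals apart from both other groups in 5. Under 0.1% it stood at 569, 333 and 657 CPM in the ERBB2-high, RARRES2-high and FOLR1-high groups, and at 1% or more it stood at 1837, 983 and 1459 CPM. In the lowest range the FOLR1-high to RARRES2-high ratio of TUBB was 1.97 (1.57 to 2.505), against 1.33 over all cells. TUBB4B was highest in the RARRES2-high group in 5 of 5 ranges, with intervals apart in 2, at 163, 379 and 293 CPM in the lowest and 1168, 1601 and 1474 CPM in the highest.

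TUBA1B was also highest in the RARRES2-high group in 5 of 5 ranges, with intervals apart in 4. Under 0.1% its levels were 272, 670.1 and 367 CPM, and at 1% or more they were 2550.0, 2734 and 1967 CPM. The RARRES2-high to ERBB2-high ratio of TUBA1B went from 2.47 (2.06 to 2.94) in the lowest range to 1.07 (1.00 to 1.15) in the highest. In the RARRES2-high group TUBA1B already stood at 2814 CPM between 0.3 and 0.6%, above the highest range of each other group. TUBA1A was highest in the ERBB2-high group in 5 of 5 ranges, with intervals apart in 5. There it stood at 376 CPM (348 to 405) in the lowest range, 256 CPM (197 to 327) between 0.3 and 0.6% and 399 CPM in the highest. In the FOLR1-high group it went from 186 to 65.7 CPM. TUBA4A was lowest in the FOLR1-high group in 5 of 5 ranges, with intervals apart in 5. TUBB6 was highest in the RARRES2-high group in 5 of 5, with intervals apart in 3.

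Most calls between groups over all cells were not met in every range, where 19.7 to 25.4% of all entries were called in a pair. In the ERBB2-high against the RARRES2-high group, TUBA1A passed the limit in 5 of 5 ranges, TUBB4B in 3, TUBA1B in 2 and TUBB6 in 1. In the ERBB2-high against the FOLR1-high group, TUBA4A passed in 5 and TUBA1A in 4. In the RARRES2-high against the FOLR1-high group, TUBA4A and TUBB6 passed in 4, TUBB2A in 3, TUBA1B in 2 and TUBA1C in 0. None of these calls changed direction in any of the 5 ranges. Other members passed the limit in 1 range only. In the ERBB2-high against the RARRES2-high group TUBA4A was lower at 1% or more (log2 ratio -1.20). In the ERBB2-high against the FOLR1-high group TUBB4B was lower from 0.1 to 0.3% (-1.01) and TUBA1C higher at 1% or more (1.18). In the RARRES2-high against the FOLR1-high group TUBB was lower from 0.1 to 0.3% (-1.0003), TUBB3 was higher at 1% or more (1.33), and TUBB2B, with 0 counts in the RARRES2-high cells, was lower under 0.1% (-1.09).

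The shares of isotypes also differed within the lowest range, in 385, 50 and 170 cells of the 3 groups. There TUBB held 58.5, 31.8 and 53.7% of beta counts and TUBB4B 16.8, 36.1 and 24.0% in the ERBB2-high, RARRES2-high and FOLR1-high groups. The TUBB3 entry held 11.7% (10.3 to 13.3), 9.85% (6.59 to 14.0) and 14.9% (12.7 to 17.3) of beta counts there, so that the RARRES2-high group was lowest and not highest. TUBA1A held 33.3, 12.8 and 22.8% of alpha counts and TUBA1B 24.1, 52.2 and 45.0%. TUBB shares were within 2 points of those over all cells, while TUBA1A shares were higher and TUBA1B shares lower in each group.

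**Figure D4:**
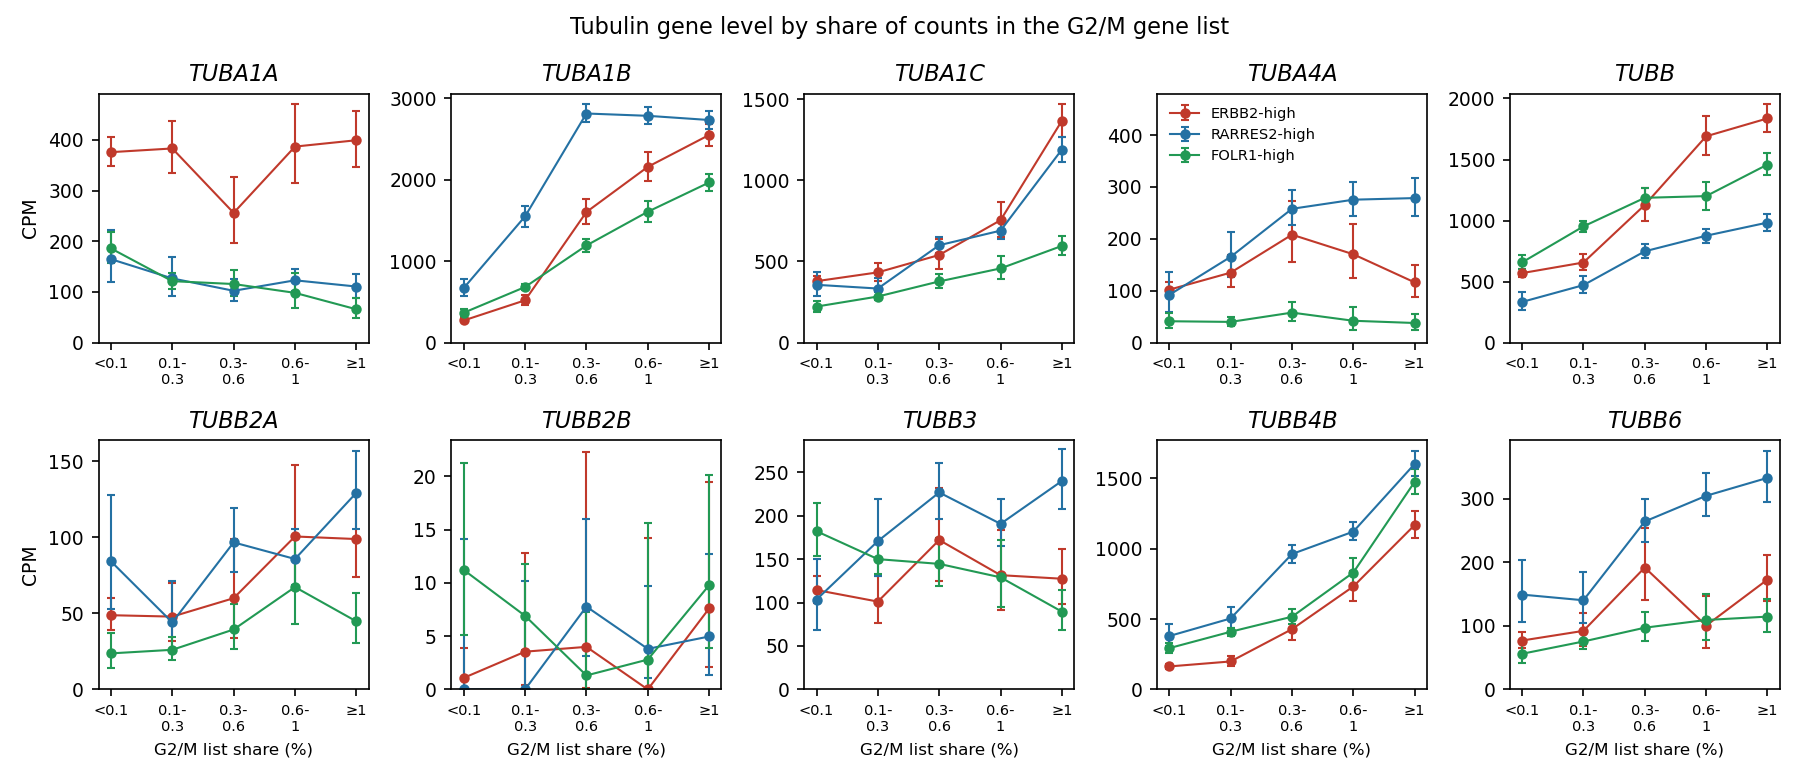
Level of each member in CPM in 5 common ranges of the share of counts in the G2/M list (percent), with 1 line per group and 95% intervals for counting error; each panel has its own vertical scale from 0. TUBB runs lowest in RARRES2-high cells in each range, from 333 to 983 CPM, and TUBA1B reaches 2814 CPM there by the middle range.

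Since several members were higher in G2/M-high cells, the members' promoters were searched for 2 motifs known from genes of the G2 and M phases, the CCAAT box and the CHR element, here the letters TTTGAA or TTCGAA, on both strands. The windows, 250 bases before and 50 after each start, come from RefSeq (GRCh38.p14); the 10 members matched 15 of them. CCAAT was found in 34.6% of 35116 windows of this length, at least 2 CCAAT matches in 10.8%, TTTGAA in 15.2% and TTCGAA in 1.45%. TUBB4B had 3 CCAAT and 1 TTTGAA. The 3 TUBA1C starts had 1 CCAAT each, with 1 TTTGAA at 2 of them and 2 at the other. The windows of the 2 starts with 1 TTTGAA overlap, and their CCAAT is the same site counted in both. These 2 starts lie in the first exon of ENST00000541364, a minor TUBA1C form described below. TUBA1A had 2 CCAAT. TUBB, TUBB2B, TUBB3 and TUBB6 had 1 CCAAT at 1 start, which in TUBB3 came with 1 TTCGAA. TUBA1B, whose G2/M ratios reached 9.27, had no match in its window, nor had TUBA4A and TUBB2A.
The stretches are shown to set a member with both motifs beside one with none; motif matches are in capitals. They are TUBB4B, chr9:137241037-137241212 (plus strand), ending before the gene's first annotated base; TUBA1C, chr12:49264901-49264930 (plus strand), the 30 bases around its matches; and TUBA1B, chr12:49131396-49131645 (minus strand).
TUBB4B: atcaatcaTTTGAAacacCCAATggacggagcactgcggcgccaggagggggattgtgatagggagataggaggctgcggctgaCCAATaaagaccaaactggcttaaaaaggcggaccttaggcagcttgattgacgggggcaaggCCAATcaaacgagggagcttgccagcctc
TUBA1C: tggTTTGAActTTTGAAtccgCCAATcagc
TUBA1B: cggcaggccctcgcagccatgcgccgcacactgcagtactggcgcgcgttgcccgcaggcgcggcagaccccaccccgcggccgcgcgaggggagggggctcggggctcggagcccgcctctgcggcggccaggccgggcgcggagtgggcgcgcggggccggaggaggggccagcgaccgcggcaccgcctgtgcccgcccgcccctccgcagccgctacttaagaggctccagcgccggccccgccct

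Long reads also separate transcripts of 1 gene. TUBA1B, TUBB2A, TUBB2B and TUBB4B have 1 listed transcript each, and the other 6 members have several. None of these 6 differed by 20 percentage points in the share of a transcript between groups, where 2.82, 2.53 and 3.59% of the genes compared did in the 3 pairs. One member, TUBB6, differed by at least 10 points, beside 13.4, 12.6 and 16.0% of genes. It did so in the pairs of the ERBB2-high group with the RARRES2-high (11.5 points) and the FOLR1-high group (13.3 points).

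The minor form of TUBB6, ENST00000591909, starts within the first exon of the leading form, ENST00000317702, shares exons 2 and 3 with it, and then joins a last exon further downstream (chr18:12329146-12329826 in place of chr18:12325067-12326619, GENCODE release 29). Its coding sequence is 312 bases long, against 1338, and does not hold the acidic end shown above. The junctions are printed because the reads that support the forms differ there; capitals mark the 15 bases after the join.
ENST00000317702: acaacttcatctttgGCCAGACGGGTGCAG
ENST00000591909: acaacttcatctttgCCCATCTGCACAGGG

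The minor form made up 16.4% of TUBB6 counts (12.8 to 20.7; 59 of 359) in the ERBB2-high group. It made up 4.91% (3.61 to 6.52; 45 of 916) in the RARRES2-high and 3.14% (1.63 to 5.42; 12 of 382) in the FOLR1-high group. All of these counts were whole numbers. As levels, the minor form stood at 17.1 CPM (13.0 to 22.1), 13.3 CPM (9.72 to 17.8) and 2.66 CPM (1.37 to 4.64), and the leading form at 87.1, 258 and 81.7 CPM. The ERBB2-high and RARRES2-high groups thus overlapped in the minor form and were far apart in the leading one. Within the ERBB2-high group, the share was 12.2% (7.42 to 18.7) in G2/M-high and 20.9% (13.9 to 29.4) in G2/M-low cells. It was 3.94% (1.90 to 7.12) against 5.85% (3.66 to 8.80) in the RARRES2-high and 4.35% (1.43 to 9.85) against 3.01% (0.825 to 7.52) in the FOLR1-high group. The intervals overlapped in each group.

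Other members differed in their first exon. A TUBA4A form that starts upstream, ENST00000392088, made up 20.3% (16.5 to 24.3), 10.6% (8.60 to 12.9) and 17.8% (12.5 to 23.6) of counts in the ERBB2-high, RARRES2-high and FOLR1-high groups. Of this form's counts 26.9, 29.5 and 0% were whole, so its share rests on how reads were divided, which the intervals do not cover. Its level was 24.8, 26.1 and 7.64 CPM, while that of the leading form was 97.5, 219 and 35.3 CPM. The TUBA1C form with an upstream first exon, ENST00000541364, made up 5.98% (4.98 to 7.11), 2.84% (2.21 to 3.57) and 5.45% (4.35 to 6.65). In the ERBB2-high group, this TUBA1C share was 2.01% (1.18 to 3.05) in G2/M-high and 9.94% (7.58 to 12.6) in G2/M-low cells. It was 1.60% (0.851 to 2.59) against 3.67% (2.52 to 5.25) in the RARRES2-high and 4.35% (2.76 to 6.29) against 6.76% (4.70 to 9.26) in the FOLR1-high group, with overlapping intervals. Of the counts of the TUBA1C forms, 37.8, 28.9 and 32.4% were whole in the minor and 13.0, 8.58 and 25.5% in the leading one, so the same limit holds.

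The 3 minor TUBB forms begin at first exons downstream of the leading one, and were seldom told apart: their estimated counts were equal in the FOLR1-high group, and those of 2 of the 3 were equal in the other groups. Together they made up 14.6% (13.4 to 15.9), 16.1% (14.7 to 17.5) and 8.06% (7.29 to 8.87) of TUBB counts in the ERBB2-high, RARRES2-high and FOLR1-high groups. In G2/M-high against G2/M-low cells the share was 7.46% (6.16 to 8.85) against 21.7% (18.9 to 24.6) in the ERBB2-high group. It was 12.1% (9.87 to 14.7) against 18.2% (15.9 to 20.8) in the RARRES2-high and 5.34% (4.22 to 6.66) against 10.8% (9.34 to 12.4) in the FOLR1-high group. The share was lower in G2/M-high cells of all 3 groups, with intervals apart. Only 4.07, 2.30 and 2.71% of the leading form's counts were whole, so these shares rest on how reads were divided among forms, and the intervals do not cover that.

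**Figure D5:**
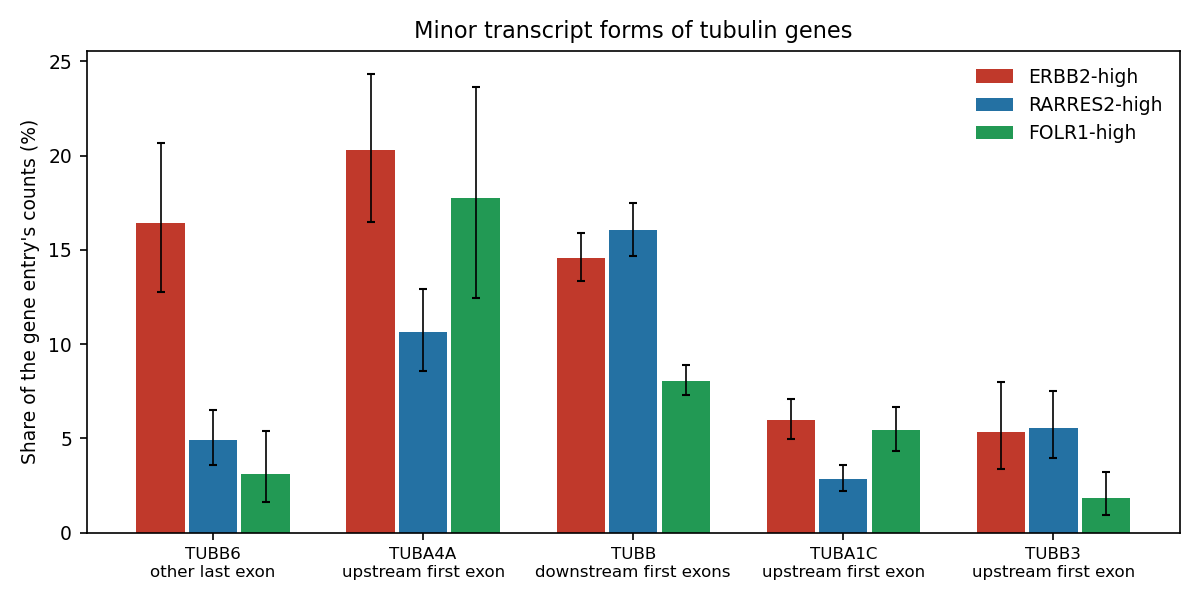
Share of minor transcript forms in the counts of their gene entry (percent) in the 3 groups, with 95% intervals for counting error. The TUBB6 form with another last exon is at 16.4% in ERBB2-high cells and at 4.91 and 3.14% in the others; the TUBB bars add 3 forms.

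Tubulin needs helpers to fold, nucleate and grow, and 86 genes of 5 lists of them were compared in the same way. In the 3 pairs, 4, 9 and 8 of the 86 were higher in the first group and 5, 2 and 0 lower, or 4.65, 10.5 and 9.30% higher and 5.81, 2.33 and 0% lower, each below the share of all entries given above. At a 1.5-fold limit the helpers called were 27.9, 38.4 and 40.7% of the 86 against 40.2, 41.4 and 38.4% of all entries, so this did not hold in the third pair. The median log2 ratio over the 86 was 0.10, 0.29 and 0.16. No gene of the gamma-tubulin complex, which nucleates microtubules, passed in any pair (10 tested). The largest log2 ratio among them, 0.995 in the ERBB2-high against the FOLR1-high group, fell just short of the limit. Among 23 folding genes, CCT6A, a subunit of the chaperonin that folds tubulin, was at 188 CPM in the ERBB2-high, 493 CPM in the RARRES2-high and 410.2 CPM in the FOLR1-high group. PFDN1, a prefoldin subunit, was at 128, 91.2 and 42.3 CPM, and TXNDC9, a chaperonin cofactor, at 94.7, 94.4 and 37.0 CPM.

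After 10 CPM were added, the widest ratios among the helpers were those of MAP1B, MAP9 and STMN3. The median log2 ratio of their list of 20 genes was -0.11, 0.07 and 0.05 in the 3 pairs. MAP1B, a microtubule-associated protein of neurons, was at 401 CPM (381 to 423) in the ERBB2-high and 507 CPM (483 to 531) in the RARRES2-high group but at 9.30 CPM (6.70 to 12.6) in the FOLR1-high group. MAP9, a spindle-associated protein, was at 103, 1.48 and 10.9 CPM, the second from 5 counts. STMN3, a stathmin that binds free dimers, was at 2.61 CPM (9 counts) in the ERBB2-high and at 79.0 and 72.0 CPM in the other groups. MACF1, which links microtubule plus ends to actin, was at 177, 102 and 37.2 CPM, and CLIP1, a plus-end tracking protein, at 96.4, 69.0 and 32.8 CPM. CKAP5, a polymerase that adds dimers at plus ends, was at 88.0, 109 and 47.0 CPM. Among 19 modifying and severing enzymes, KATNAL1, a katanin subunit, was at 28.2, 13.6 and 4.65 CPM. SVBP, the partner of the enzymes that remove the final tyrosine, was at 59.8, 19.2 and 35.2 CPM. AGTPBP1, which trims glutamate chains from the tails, was at 33.1, 10.4 and 29.2 CPM.

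Of 12 tubulin genes outside the 10 members, 5 had at least 50 counts. TUBB4A, a beta isotype of neurons and glia, was at 12.5 CPM (9.04 to 16.8; 43 counts) in the ERBB2-high, 1.48 CPM (0.481 to 3.45; 5 counts) in the RARRES2-high and 56.3 CPM (49.6 to 63.6; 254 counts) in the FOLR1-high group. Its FOLR1-high to ERBB2-high ratio was 4.50 (3.25 to 6.38). TUBG1, the gamma-tubulin of the nucleating complex, was at 102, 89.4 and 77.3 CPM. TUBG2, TUBD1 and TUBE1 lay between 4.44 and 13.9 CPM, and the other 7 had fewer.

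Genes whose pattern was most like that of each member past the limit were ranked by Pearson's r of log2(CPM + 10) over 6 groups of cells, the G2/M-high and G2/M-low cells of each line group, among 2333 entries with at least 500 counts. These r are descriptions: the 6 points share 1 library and were formed by the G2/M list. Each is also among the highest of 2333 entries over only 6 points, so high values arise by selection. Shared control was not tested. TUBB6 was nearest to DIAPH1 (r = 0.9997), a formin that builds actin filaments, with YWHAQ at 0.9903 and MRPL18 at 0.987. TUBA4A was nearest to PSMD2 (0.997), a proteasome subunit, and CFL1 (0.993), which severs actin filaments, with the histone gene H3F3B at 0.993. TUBB4B was nearest to CKS1B and CCNB2 (both 0.992), cell-cycle regulators that belong to the list, with CBX5 at 0.985. TUBA1B was nearest to the entry of PA2G4 (0.995) and to COMMD4 (0.994), with RRM1, a subunit of ribonucleotide reductase, at 0.992. TUBA1C was nearest to SF1 (0.991), CKAP5 (0.983) and WDR34 (0.973), TUBA1A to SURF1 (0.985), TMED10 (0.982) and CD2BP2 (0.975), and TUBB2A to YBX1 (0.995), KPNB1 (0.988) and GTF2A2 (0.987).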

How the data were processed

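The authors deposited estimated counts for each transcript in each barcode, without normalization; 39.8% of its 8294569 entries were whole within 1e-06. The series' design text names Isosceles, and Cell Ranger 6.0.1 and GRCh38 stand in the submitters' processing notes. Neither labels nor files state the aligner, the annotation release or the treatment of molecular identifiers, and intervals cover counting error only. Counts were summed per gene entry, barcode and group (3442383, 3377992 and 4514999 counts in the ERBB2-high, RARRES2-high and FOLR1-high groups, of 13052893 in all) and scaled to CPM. Intervals are exact Poisson for levels, Clopper-Pearson for shares (estimated counts rounded) and exact conditional for ratios, computed with scipy 1.17.1; TMM came from edgeR 4.0.16. Scrublet (scanpy 1.11.5) marked 77 barcodes as doublets, 30 of them in the groups; these were removed only in an alternative.

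The members and gene lists were chosen with earlier results of these data known. Named were all 10 members, up to 3 genes per helper list with the largest ratio among those called, other tubulins with at least 50 counts, and the 3 entries nearest to each member called between groups. Some coding ends are not reported here.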

Additional observations from a re-analysis of the deposited data

Results flagged for a closer look

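One result had opposite directions in different groups. The TUBB3 entry had a G2/M-high to G2/M-low ratio of 1.31 (1.09 to 1.58) in the RARRES2-high group and of 0.626 (0.498 to 0.782) in the FOLR1-high group, with intervals on opposite sides of 1. The difference was not tested, because each group is 1 pool of cells from 1 library. In the common ranges of the list share, TUBB3 in the FOLR1-high group stood at 182, 150.0, 145, 129 and 89.5 CPM from the lowest to the highest range. In the RARRES2-high group it stood at 103, 171, 227, 191 and 240 CPM.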

How the results depend on the processing

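Alternatives covered depth and purity of cells, doublets, scaling, the added CPM, the fold limit, and the cell-cycle list and its limits. Added after seeing the data were TUBB3 transcripts alone and 3 of the 5 ranges of the G2/M share. Those ranges were under 0.1%, from 0.1 to 0.3% and at least 1%. Of counts of called genes or shifted shares under an alternative, 98 stayed within 1.5 times the main count and 14 did not. Members called in the ERBB2-high and RARRES2-high pair numbered 2 at a G2/M share of at least 1%. In the ERBB2-high and FOLR1-high pair they numbered 5 at a 1.5-fold limit and 1 at a share under 0.1%. In the RARRES2-high and FOLR1-high pair they numbered 3 under 0.1% and 3 from 0.1 to 0.3%. All entries were called in 41.4% at that 1.5-fold limit, and in these ranges in 20.3, 20.3, 21.9 and 22.1%, in the order given. Helper genes called in the 3 pairs numbered 18, 24 and 24 with 1 CPM added and 24, 33 and 35 at 1.5-fold, or 20.9, 27.9 and 27.9% and 27.9, 38.4 and 40.7% of them, beside 33.2, 34.0 and 33.8% and 40.2, 41.4 and 38.4% of all entries. A limit of 10 points gave 1 member with a shifted transcript share. An S phase list of 23 genes was also used in place of the G2/M list. With it 7 members were called in the ERBB2-high, 0 in the RARRES2-high and 2 in the FOLR1-high group. All entries were called in 12.3, 9.59 and 10.6%. The log2 ratio of TUBA1C was -0.42 in the RARRES2-high group, and that of TUBB2A was -0.11 there and -0.0464 in the FOLR1-high group. The cause was not tested. Of other values, 522 stayed within their counting interval and 141 did not. Among 660 log2 ratios under an alternative, 33 had another sign than the main value: the 3 called ones given above and 30 that were not called. Of these 30, 15 were in the 3 ranges of the G2/M share named above. Signs in the ranges from 0.3 to 1% were not counted. No paired analysis was possible because each platform has 1 library. TUBB2B, with 9 to 31 counts a group, is limited by depth.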
